A study of Mus musculus with 2 samples.

Results

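The genes described here encode the proteins of the cytosolic ribosome. They were taken as every probe set of the array whose single gene symbol begins with Rpl or Rps, leaving out the Rps6k kinases and symbols that hold Gm. The rule gave 107 of 45037 probe sets, for 51 symbols of 18193 named genes. Of these symbols 22 encode proteins of the large subunit and 21 of the small subunit, together called core genes below. Another 5 symbols are paralogs, 2 share only the prefix, and 1 is a pseudogene. The core genes listed for mouse number 77, and 34 of them have no probe set with 1 symbol. Ribosomal protein genes have many processed pseudogene copies of near-identical sequence. A further 110 probe sets carry a ribosomal symbol together with others, mostly pseudogenes, and are not counted as members.

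The transgenic sample was RNA of B cells from 2 NOD mice, 8 weeks old, that carried human AIRE under an MHC class II promoter, which is active in antigen-presenting cells and not in B cells alone. The non-transgenic sample was RNA of the same kind of cells from 2 NOD mice of that age without the transgene. NOD is an inbred strain that develops autoimmune diabetes, and AIRE is the factor through which thymic epithelium transcribes genes of other tissues. The cells were B220-positive and negative for Thy1 and CD11c, and each group was hybridised to 1 array. There is therefore no replicate check, no test and no p-value for any difference below. The number of arrays sets the precision.

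A cytosolic ribosome joins a small subunit, which reads the message, to a large subunit, which forms the peptide bond, and each protein is needed in about one copy per particle. Most messages for these proteins begin with a terminal oligopyrimidine tract, an unbroken run of C and T that starts at the capped first base. Through this tract the mTOR pathway and the binding protein Larp1 hold back or release the translation of the whole set together. In lymphocytes ribosome production rises with activation, and the messages of ribosomal proteins are among the most abundant in the cell.

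The sequences around annotated starts are shown because most messages of these genes are known to carry the tract. Each is 30 bases from RefSeq, build GRCm38.p6, with the annotated first base at the eleventh place, and capitals mark a run of at least 5 pyrimidines that covers that base. The capitals can begin upstream of that base. All 5 core genes shown were taken from those with such a run, and core genes without one are not shown. The first is on chr4:86857348-86857377, minus strand, the second on chr2:39005112-39005141, minus strand, the third on chr11:114668570-114668599, plus strand, the fourth on chr7:141447641-141447670, plus strand, the fifth on chr17:27635225-27635254, minus strand, and the sixth, of the muscle paralog Rpl3l, on chr17:24727816-24727845, plus strand.
Rps6: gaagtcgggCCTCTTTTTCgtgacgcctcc
Rpl35: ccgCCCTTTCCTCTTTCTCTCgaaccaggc
Rpl38: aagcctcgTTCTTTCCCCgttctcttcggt
Rplp2: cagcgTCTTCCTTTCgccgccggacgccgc
Rps10: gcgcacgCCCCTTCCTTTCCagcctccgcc
Rpl3l: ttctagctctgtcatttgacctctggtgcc

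Such a run covered an annotated start of 13 of the 38 core genes with a promoter entry (34.2%), of 0 of 4 paralogs, and of 11.8% of the 27025 genes of all kinds in the table. A run of at least 5 that begins with C at the annotated first base itself was found in 8 of the 38 (21.1%) and in 3.01% of all genes. Annotated starts can lie some bases from the true first base, so a run that is not found there is not shown to be absent from the message. The motif CGGAAG, read on both strands in the 250 bases before and the 50 bases after the start, was present in 28 of the 38 core genes (73.7%) and in 18.8% of all genes. It is the core of the sites bound by ETS family factors, and a match is a description of the letters only. The 13 core genes above the intensity filter with a pyrimidine run over the start had a median log2 ratio of -0.31 (from -0.72 to 0.36), and the 24 without one had -0.29 (from -0.70 to 0.12). The ratios of the 27 genes with CGGAAG (median -0.31) and of the 10 without it (median -0.25) also covered overlapping ranges.

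Intensities below are the authors' linear values after the medians of the arrays were aligned, and each ratio is the log2 of transgenic over non-transgenic intensity. A gene is represented by its probe set of highest mean intensity and was kept if the higher of its 2 values reached 98.8, the median of all probe sets. The kept genes number 10778, with a median ratio of 0.19 after this alignment, so a gene at 0 lies below the middle of the arrays. That median was 0.01 in the values as deposited, 0.04 after loess and 0.05 after quantile normalization. B cell markers with 1 symbol were all above the filter (7 of 7), as the label says of these cells, and all 7 were lower on the transgenic array, with a median ratio of -0.41 and a summed intensity of 127922 in transgenic against 197712 in non-transgenic cells. Among the 7 was Ptprc, which encodes CD45. Its B220 form marks B cells, but other white cells carry CD45 too. Ptprc made up 28480 of the transgenic and 35684 of the non-transgenic sum. Several of the 7 markers are bright, and of the 26 genes outside the members at 30000 or more, 25 were below 0. In transgenic cells the summed intensities of other markers were 1537 for T cells, 4718 for natural killer cells, 13214 for dendritic cells and macrophages, 27215 for plasma cells, 9101 for neutrophils and 20.3 for red cells. In non-transgenic cells they were 1485 for T cells, 2819 for natural killer cells, 11854 for dendritic cells and macrophages, 30310 for plasma cells, 8775 for neutrophils and 27.1 for red cells. Such sums rest mostly on the brightest markers. By median ratio neutrophil markers were at 0.77 (3 higher, 2 lower) and natural killer cell markers at 0.71 (4 higher, 1 lower). Dendritic cell and macrophage markers were at 0.14 (4 higher, 3 lower) and plasma cell markers at 0.11 (2 higher, 2 lower). T cell markers were at -0.11 (3 higher, 3 lower), where Cd4 passed the filter only through its transgenic value. The part of these cell types in the ratios below was not tested, and in bulk RNA fewer cells of a type and less RNA per cell cannot be told apart.

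Core ribosomal protein genes were lower on the transgenic array by a modest amount, which differed with their brightness and depended on the scaling. Of 43 core genes 42 lay above the filter, and their median ratio was -0.30, which is -0.49 relative to the median of all genes on the log2 scale. The ratio was below 0 in 37 of the 42 and below the all-gene median in 40, where 35.1% and 50.0% of all genes were. None of the 42 was 2-fold apart, against 7.62% of all genes (4.43% higher by that much and 3.19% lower). Most core genes are bright, however, and of the 214 other genes at 10000 or more only 3 were that far apart (1.40%). The ratios had an SD of 0.224 across core genes and 0.581 across all genes, but of 0.371 across other genes at 10000 to 30000 and 0.282 across those at 30000 or more, and none of these is a replicate error. The scaling moved the core genes: the core median was -0.47 in the values as deposited and -0.23 after loess, but 0.01 after quantile normalization, where 20 core genes were below 0, 21 above it and the offset from the all-gene median was -0.04.

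Control probe sets moved as well. All 18 probe sets for bioB, bioC, bioD and cre, labelled RNAs that are added to the hybridization mix, were lower on the transgenic array, with ratios from -0.82 to -0.43 and a median of -0.70. Of the 24 for dap, lys, phe and thr, RNAs that are added before labelling, 22 were above 0, with a median of 0.56, and the brightest had a mean intensity of 1511. Beta-actin, read at 3 places of its message, gave -0.45 near the 3′ end and -0.71 near the 5′ end, and Gapdh gave -0.11 near the 3′ end and -0.32 near the 5′ end. The part of these differences in the ratios of ribosomal protein genes was not tested.

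**Figure D1:**
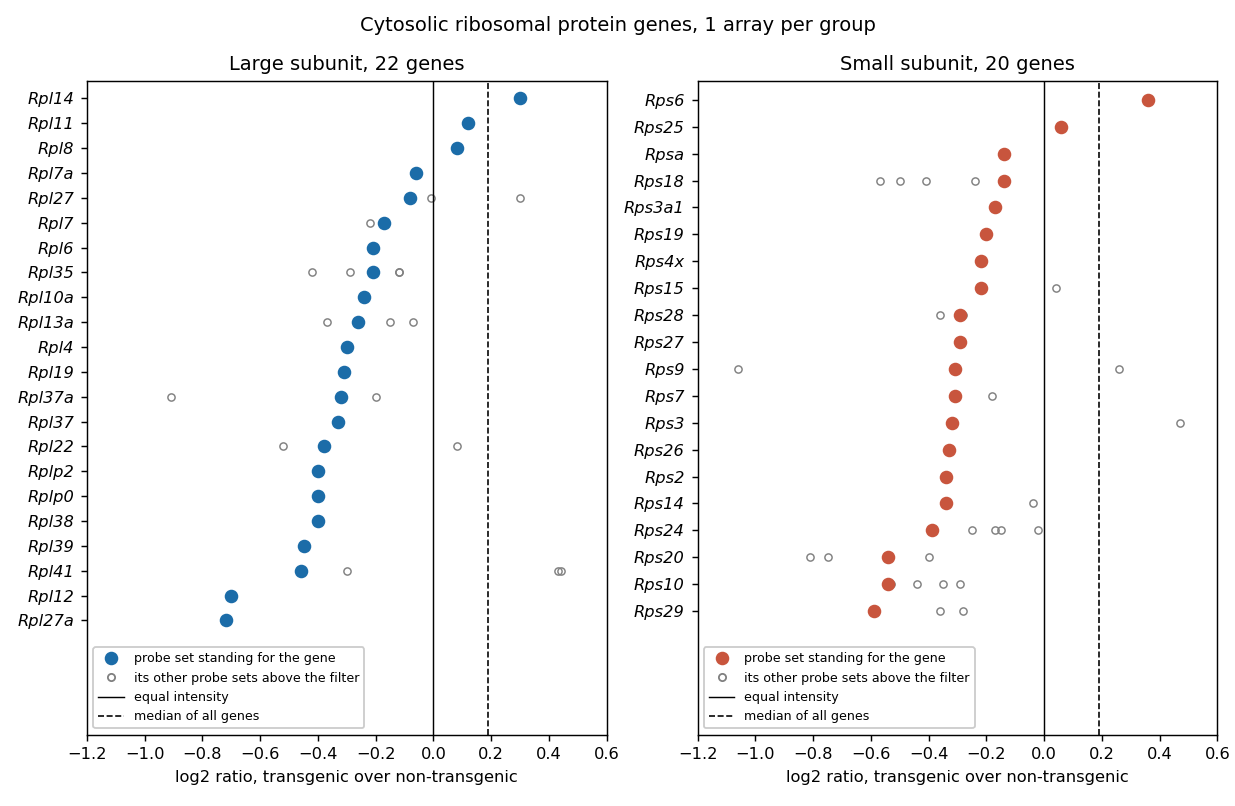
Log2 ratio of transgenic over non-transgenic intensity (x axis) for each core gene above the filter (y axis), with the large subunit on the left and the small subunit on the right. Filled points are the probe set that stands for the gene, open points its other probe sets above the filter, the solid line equal intensity and the dashed line the median of all genes, 0.19. Among the filled points only Rpl14 in the large and Rps6 in the small subunit lie to the right of the dashed line.

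The 2 subunits could not be told apart by these values. The 22 large subunit genes had a median ratio of -0.30, ranging from -0.72 to 0.30, and the 20 small subunit genes had -0.30, ranging from -0.59 to 0.36. The transgenic array gave a median intensity of 35800 for large and 37670 for small subunit genes, and the non-transgenic array 40023 and 43507. Ratios were below 0 in 19 of 22 large and 18 of 20 small subunit genes. After quantile normalization the medians were 0.02 for the large and -0.02 for the small subunit.

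In the large subunit the stalk genes were among the lower ones. Rplp0, the base of the stalk that calls elongation factors to the ribosome, was at 37134 in transgenic and 49016 in non-transgenic cells (-0.40). Rplp2, an acidic protein of the same stalk, was at 45026 in transgenic and 59344 in non-transgenic cells (-0.40). Under quantile normalization Rplp0 stayed below 0 at -0.12 while Rplp2 was at 0.02. Rpl41, the smallest protein of the ribosome, was at 38905 in transgenic and 53341 in non-transgenic cells (-0.46), and its probe sets did not agree. A second bright one gave -0.30, and 2 dimmer ones gave 0.43 and 0.44, so no direction is given for Rpl41.

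Low ratios in the large subunit also came from dimmer probe sets, and the lowest 2 were among them. Rpl27a was at 1066 in transgenic and 1753 in non-transgenic cells (-0.72), and its other probe set was under the floor on both. Rpl12, which sits at the foot of the stalk, was at 1241 in transgenic and 2021 in non-transgenic cells (-0.70). Rpl39, which lines the exit tunnel, was at 206 in transgenic and 281 in non-transgenic cells (-0.45). These 3 genes, each read by 1 usable probe set, were lower under all 4 scalings, with quantile-normalized ratios of -0.90 for Rpl27a, -0.90 for Rpl12 and -0.51 for Rpl39. A dim second probe set of Rpl37a, picked out after its values were seen, was lower still, at 905 in transgenic and 1702 in non-transgenic cells (-0.91), while the probe set that stands for Rpl37a gave -0.32 and a further bright one -0.20.

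At the other end of the large subunit 3 genes were above 0. Rpl14 was highest, at 373 in transgenic and 304 in non-transgenic cells (0.30), from 1 dim probe set. Rpl11, which with the 5S ribosomal RNA can bind Mdm2 and so release p53, was at 28046 in transgenic and 25794 in non-transgenic cells (0.12). Rpl8, a protein next to the catalytic centre, was at 19658 in transgenic and 18596 in non-transgenic cells (0.08). In the values as deposited Rpl11 was at -0.04 and Rpl8 at -0.08, so their direction turned with the scaling, whereas Rpl14 was above 0 under all 4. Rpl7a was at 34993 in transgenic and 36355 in non-transgenic cells (-0.06), Rpl27 had probe sets from -0.08 to 0.30, and the 3 probe sets of Rpl7 lay between -0.22 and -0.17. After quantile normalization Rpl7a was at 0.19, Rpl27 at 0.14 and Rpl7 at 0.09, so their sign turned as well.

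Of the large subunit genes with the brightest probe sets, Rpl13a can leave the ribosome to silence inflammatory messages in human monocytic cells treated with interferon gamma. It was at 53881 in transgenic and 64460 in non-transgenic cells (-0.26), with its 4 probe sets from -0.37 to -0.07. Rpl38, needed in mouse embryos to translate a subset of Hox messages, was at 50488 in transgenic and 66726 in non-transgenic cells (-0.40). After quantile normalization Rpl13a was at 0.14 and Rpl38 at 0.02, so both lost their lower position there.

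In the small subunit Rps29, a small zinc-binding protein, had the brightest probe set of all members and the lowest ratio of its subunit. That probe set was at 61575 in transgenic and 92990 in non-transgenic cells (-0.59), and the other 2 probe sets of Rps29 gave -0.36 and -0.28. Quantile normalization sets the first to 0.00, because it was the brightest probe set on both arrays. Rps10, a protein at the message entry that is ubiquitinated when ribosomes collide, was at 48692 in transgenic and 70993 in non-transgenic cells (-0.54). All 6 probe sets of Rps10 were below 0, from -0.54 to -0.29, though probe sets of one gene may overlap in sequence and share these arrays. The dimmest of them was at 83.4 in transgenic and 106 in non-transgenic cells. It passed the filter only through its non-transgenic value and so had to be below 0. Rps20, another target of the collision pathway, was at 43807 in transgenic and 63525 in non-transgenic cells (-0.54), and its 4 probe sets ranged from -0.81 to -0.40. The 2 dim ones (-0.81 and -0.75) were at 79.8 and 97.6 in transgenic and 139 and 164 in non-transgenic cells. Both passed the filter only through their non-transgenic values and so had to be below 0. Rps10 was at -0.14 and Rps20 at -0.15 after quantile normalization, so both stayed below 0 under each of the 4 scalings.

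Other small subunit genes followed with smaller differences. Rps24, mutated in some families with Diamond-Blackfan anaemia, was at 42177 in transgenic and 55445 in non-transgenic cells (-0.39), with 5 probe sets from -0.39 to -0.02. Rps2, at the message entry, was at 35350 in transgenic and 44890 in non-transgenic cells (-0.34). Rps14, a platform protein whose loss is tied to a human myelodysplastic syndrome, was at 51292 in transgenic and 64794 in non-transgenic cells (-0.34), but its second probe set gave -0.04. Rps3, which also serves as a partner of NF-kB in lymphocytes, was at 33842 in transgenic and 42125 in non-transgenic cells (-0.32), but a dimmer probe set gave 0.47. The mean over its probe sets was 0.12 and the middle one 0.20, so no direction is given for Rps3. That middle probe set was under the filter on both arrays and under the floor on the non-transgenic array, and the mean includes it. Under quantile normalization Rps24 was at -0.04, Rps2 at -0.06, Rps14 at 0.06 and Rps3 at -0.06. Each of these 4 genes was thus within 0.06 of equality under that scaling.

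Rps6, the protein phosphorylated by the S6 kinases downstream of mTOR, had the highest ratio of the small subunit. Its probe set was at 1485 in transgenic and 1158 in non-transgenic cells (0.36), and stayed above 0 under all 4 scalings, from 0.17 to 0.36. Rps25, used in initiation at some internal entry sites, was at 2612 in transgenic and 2507 in non-transgenic cells (0.06), a sign that turned under the other scalings, to -0.14 after loess and after quantile normalization and -0.10 as deposited. Rpsa, first described as a laminin receptor and mutated in human congenital asplenia, was at 37136 in transgenic and 40867 in non-transgenic cells (-0.14). Rps3a1 was at 51610 in transgenic and 58118 in non-transgenic cells (-0.17). Rps19, the gene most often mutated in Diamond-Blackfan anaemia, was at 27449 in transgenic and 31544 in non-transgenic cells (-0.20). Rps18, in the head of the subunit, was at 38204 in transgenic and 41967 in non-transgenic cells (-0.14), although its 4 other probe sets above the filter were lower, down to -0.57. The lowest of these was at 94.9 in transgenic and 141 in non-transgenic cells. It passed the filter only through its non-transgenic value and so had to be below 0. A further probe set of Rps18, under the filter on both arrays, gave 0.22. After quantile normalization Rps3a1 was at 0.24, Rps18 at 0.13 and Rpsa at 0.12, so the sign of these 3 turned, and Rpsa was also at 0.34 as the mean of its probe sets, the other of which was under the filter. Rps16 had 1 probe set with its symbol alone, at 3.61 in transgenic and 1.33 in non-transgenic cells, under the floor of 25.1 on both, so no ratio is given.

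How far a single ratio can be trusted was read from genes with several probe sets. In 18 core genes with at least 2 probe sets above the filter, the ratios of one gene spanned a median of 0.34 and at most 1.32. Among the 16 with at least 2 probe sets at 10000 or more, the span had a median of 0.21 and a maximum of 0.38. These spans describe how probe sets of one gene differ on the same 2 arrays and say nothing of a shift shared by the arrays. The widest span was in Rps9, a gene picked out after its values were seen. Its main probe set was at 32639 in transgenic and 40531 in non-transgenic cells (-0.31), while a dimmer one was at 209.6 in transgenic and 437 in non-transgenic cells (-1.06) and another gave 0.26. The -1.06 was the only ratio past 2-fold among the 87 core probe sets above the filter.

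Over all 42 core genes the Pearson correlation of the ratio with the log2 mean intensity was -0.19. Among the 34 core genes at 10000 or more, it was -0.73 (-0.81 over 17 large and -0.58 over 17 small subunit genes), and among the 214 other genes as bright it was -0.45. These are correlations across genes of the same 2 arrays, which share every step of labelling and scanning, and genes are not independent replicates. At 30000 or more, all 31 core genes were below 0, with a median of -0.31, and so were 25 of 26 other genes, with a median of -0.41. Between 10000 and 30000, the 3 core genes had a median of 0.08 and the 188 other genes 0.07. Bright core genes thus had about the ratios of other bright genes, and the difference of the 2 medians at 30000 or more was 0.09 under the alignment and between 0.09 and 0.12 under the 11 alternatives. The 26 other genes were not chosen to be unrelated to the ribosome or to B cells. Among them were Fau (-0.45), which also encodes a ribosomal protein, and Tpt1 (-0.48) and Eef1a1 (-0.41), whose messages carry a pyrimidine tract. The B cell markers Cd79a (-1.26) and Ms4a1 (-0.38) were among them as well, and so was Ptprc (-0.33), which is not confined to B cells.

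**Figure D2:**
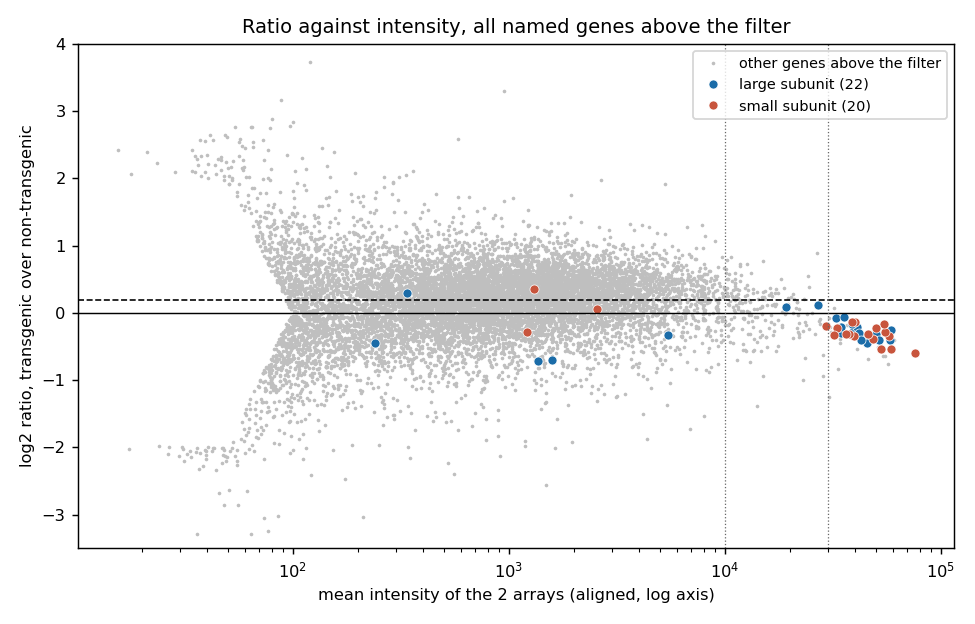
Log2 ratio of transgenic over non-transgenic intensity (y axis) against the mean intensity of both arrays (x axis, log scale) for all 10778 genes above the filter. Blue points are large and red points small subunit genes, grey points all other genes; the solid line is equal intensity, the dashed line the all-gene median of 0.19, and the dotted lines mark 10000 and 30000. At 30000 or more, where 31 core genes lie, 25 of 26 other genes are also below 0.

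The 8 core genes under 10000 bear on the same question at ordinary brightness. Their median ratio was -0.31, against 0.19 over the 10516 other genes under 10000, and 5 of the 8 were below 0. Rpl27a, Rpl12, Rpl39, Rpl37 (-0.33) and Rps27 (-0.29) were lower, and Rps6, Rpl14 and Rps25 were higher. Their gap to other genes, -0.50, was -0.54 after loess and after quantile normalization, and shrank to -0.37 when each gene was read by its probe set of middle ratio and to -0.32 with no filter. With 8 genes of 1 probe set each above the filter, one or a few probe sets can move this median, and their dim probe sets may read parts of the transcript other than those read by bright ones. In 11 core genes with both bright and dimmer probe sets, the dimmer ones had the higher ratio in 6 and the lower in 4. Some dimmer probe sets of Rps10, Rps18 and Rps20 had passed the filter only through the non-transgenic array, which fixed their sign.

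The brightest signals on the arrays were largely ribosomal, which bears on what a scaling can show. Of the 100 brightest probe sets, 30 were members and 41 more carried a ribosomal symbol with others. Members made up 6.21% of the summed intensity in transgenic and 7.83% in non-transgenic cells, and together with the probe sets of several symbols 13.5% in transgenic and 16.8% in non-transgenic cells. Quantile normalization gives both arrays the same set of values, so that it takes away any difference shared by most of the brightest probe sets, whatever its source. The probe sets of several symbols, whose gene cannot be named, were also mostly below 0. Of 110, 106 lay above the filter, with a median ratio of -0.20 from -0.57 to 0.81, 83 of them below 0 and none 2-fold apart. Of all genes above the filter 35.1% were below 0 and 7.62% were 2-fold apart. At 10000 or more their median was -0.25, against -0.28 for core probe sets. Probe sets of no ribosomal symbol had a median of 0.01 there, with 182 below 0, 183 above it and 3 past 2-fold. In that band 31 of 34 core genes but 26 of 214 other genes were at 30000 or more, so brightness was not matched. Under 1000 probe sets of no ribosomal symbol had a median of 0.11, with 7003 below 0 and 9502 above it. For those of several symbols it was 0.00, with 10 below 0 and 11 above it. For core probe sets it was -0.39, with 9 below 0 and 3 above it. Among the 9, dim probe sets of Rps10, Rps18 and Rps20 passed the filter only through the non-transgenic array. They had to be below 0, so no conclusion is drawn from these counts.

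**Figure D3:**
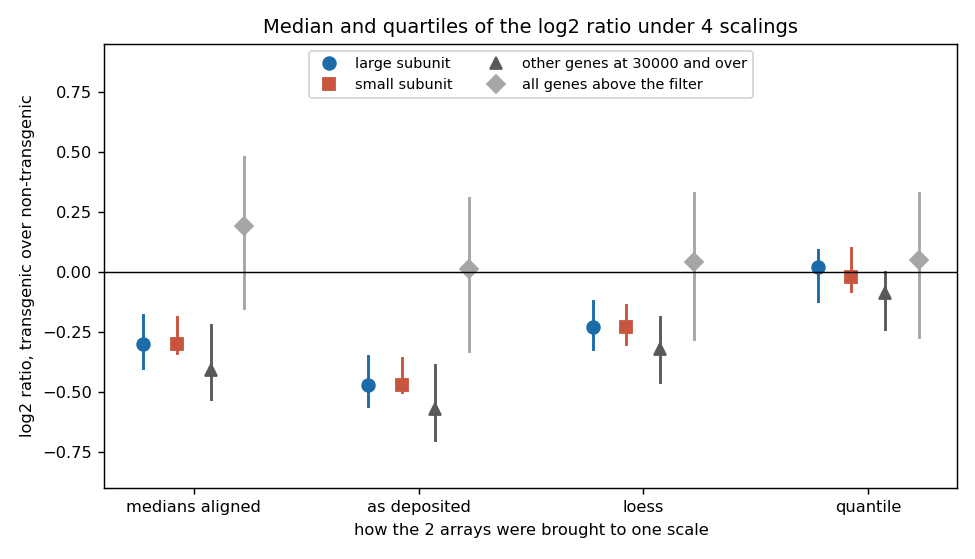
Median (symbols) and quartiles (bars) of the log2 ratio of transgenic over non-transgenic intensity (y axis) under 4 ways of bringing the arrays to one scale (x axis), for large subunit genes, small subunit genes, other genes at 30000 or more and all genes above the filter. The subunit medians are -0.30 and -0.30 with the medians aligned, -0.47 and -0.47 as deposited, -0.23 and -0.23 after loess, and 0.02 and -0.02 after quantile normalization.

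The paralogs were read apart from the core genes. Rps4l, an autosomal copy on chromosome 6 related to the X-linked Rps4x, was the only paralog 2-fold apart, at 41.9 in transgenic and 111 in non-transgenic cells (-1.40). It passed the filter only through its non-transgenic value, just above 98.8, and so had to differ, and it was between -1.57 and -1.38 under the 4 scalings. With the floor raised to 100 the ratio was -0.15, so the 2-fold difference rests on values near background. Rps4x itself was at 46406 in transgenic and 53990 in non-transgenic cells (-0.22). Rpl3l, which replaces Rpl3 in heart and skeletal muscle, was at 62.3 in transgenic and 79.8 in non-transgenic cells, under the filter on both. Rpl39l, a testis form of Rpl39, was at 50.9 in transgenic and 67.4 in non-transgenic cells, also under the filter. Neither tissue-specific paralog was therefore seen at a raised level with the transgene, within what signals this dim can show.

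Rpl22l1 and Rps27l, paralogs in wider use, were well above the filter. Rpl22l1, a partner copy of Rpl22, which is needed for alpha-beta T cell development in mice, was at 16318 in transgenic and 18437 in non-transgenic cells (-0.18). Rps27l, a p53-induced relative of Rps27, had 3 probe sets. They were at 3777, 3451 and 2381 on the transgenic array and at 4306, 3835 and 2828 on the non-transgenic array, with ratios from -0.25 to -0.15. Both genes were lower under all 4 scalings, with quantile-normalized ratios of -0.18 for Rpl22l1 and -0.38 for Rps27l.

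The members that share only the prefix were above 0 by their brightest probe sets. Rpl7l1, a nucleolar relative of Rpl7, was at 2078 in transgenic and 1530 in non-transgenic cells (0.44), while another probe set gave 0.03 and the remaining one, under the filter, gave -0.89. Its mean over probe sets was -0.14, so the direction of Rpl7l1 turned with the choice of probe set. Rps19bp1, a binding partner of Rps19 that also regulates the deacetylase Sirt1, was at 724 in transgenic and 578 in non-transgenic cells (0.33). The pseudogene Rps15a-ps6 was at 233 in transgenic and 115 in non-transgenic cells (1.01), just past 2-fold, but at 0.97 after quantile normalization, 0.96 after loess and 0.85 as deposited. Its sequence is close to that of Rps15a, so which transcript was read is uncertain.

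**Figure D4:**
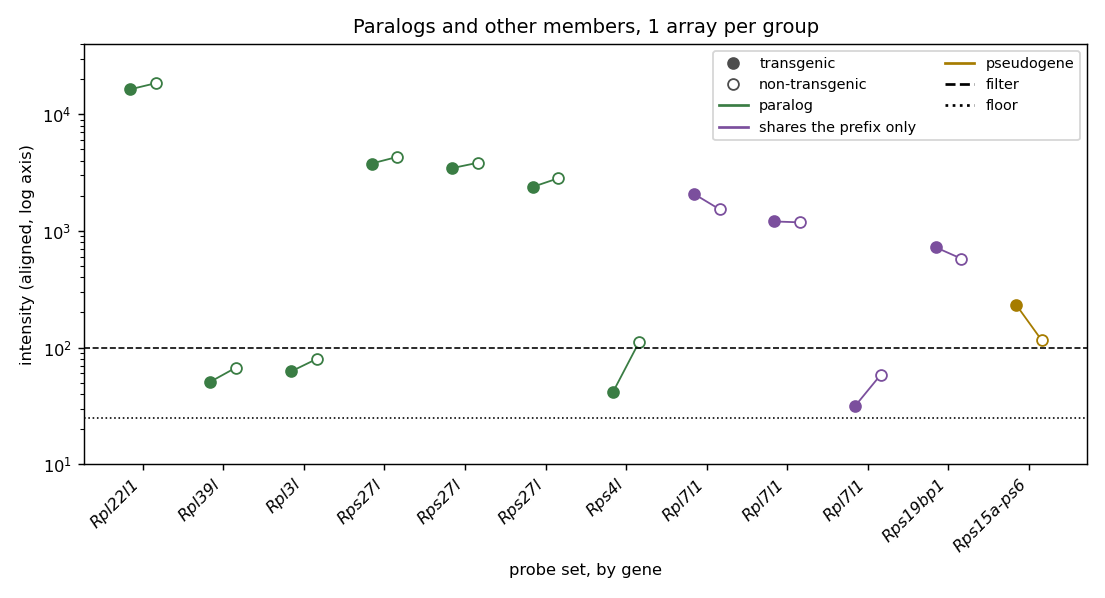
Aligned intensity (y axis, log scale) of each probe set of the paralogs, of the genes that share only the prefix and of the pseudogene (x axis), with the transgenic value as a filled point on the left and the non-transgenic value as an open point on the right. The dashed line is the filter at 98.8 and the dotted line the floor at 25.1. Rpl3l and Rpl39l lie under the filter on both arrays, and Rps4l crosses it only on the non-transgenic array.

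Genes that work with the ribosome were read from lists. Fau, whose product is cleaved to a ubiquitin-like protein and a small subunit protein, was at 29196 in transgenic and 39756 in non-transgenic cells (-0.45, and -0.25 after quantile normalization). Rpl5, Rpl10, Rplp1 and Rack1, which had no probe set with 1 symbol, were not analysed here. The 39 ribosome biogenesis genes above the filter had a median ratio of 0.18, at the all-gene median of 0.19, with 14 below 0, 25 above it and none 2-fold apart. Among them Npm1, a nucleolar chaperone, was at 16796 in transgenic and 13599 in non-transgenic cells (0.30). Nucleolin, Ncl, was at 11114 in transgenic and 13094 in non-transgenic cells (-0.24), with 4 other probe sets from -0.56 to 0.79. The median of these genes was -0.01 after quantile normalization, where that of core genes was 0.01 and that of all genes 0.05, so their higher position relative to core genes was not seen under that scaling.

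Other messages with a pyrimidine tract were mixed. The 16 above the filter had a median of -0.06, with 10 below 0, 11 below the all-gene median and none 2-fold apart. Tpt1, an abundant growth-related protein, was at 50079 in transgenic and 69623 in non-transgenic cells (-0.48), and the elongation factor Eef1a1 was at 51779 in transgenic and 68990 in non-transgenic cells (-0.41). These are the 2 brightest of the list, and their ratios were -0.07 and 0.00 after quantile normalization. The 14 genes that control such messages or sense ribosome faults had a median of 0.14, with 5 below 0, 9 above it and none 2-fold apart. The mTOR activator Rheb was at 5832 in transgenic and 3684 in non-transgenic cells (0.66), and Nemf, a factor of ribosome quality control, was at 4140 in transgenic and 2960 in non-transgenic cells (0.48), with other probe sets at -0.37 and 0.47. The lowest of the list, picked out after their values were seen, were the mTOR inhibitor Tsc2, at 369 in transgenic and 537 in non-transgenic cells (-0.54), and the translation repressor Eif4ebp2, at 3083 in transgenic and 3973 in non-transgenic cells (-0.37), whose other probe sets ranged from -1.77 to -0.88. Tsc1 was at 1390 in transgenic and 917 in non-transgenic cells (0.60), with other probe sets at -0.68 and -0.42, and Rptor gave -0.14. Tsc1 and Rptor, too, were picked out after their values were seen. No direction is given for the mTOR pathway.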

How the data were processed

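One Affymetrix mouse array was used for each of the transgenic and non-transgenic B cell samples. The authors deposited 1 linear intensity for each probe set and array, and the software and scaling that the authors used are not given in the sources used here. On both arrays the mean of the deposited intensities without the highest and lowest 2% was 500.0. By that measure the deposited values were already on one scale and are not raw signals. The 64 control probe sets were set aside. Of the rest, 34945 carry 1 symbol in the platform table. RefSeq identifiers matched 34741 of these and renamed 0.

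The medians (93.1 transgenic, 104.3 non-transgenic) were aligned with factors of 1.06 and 0.947. The pooled 25th percentile, 25.1, served as a floor before log2 was taken. Genes were represented by the probe set of highest mean intensity. Named were, per subunit, the 6 highest and 6 lowest ratios and the 3 brightest genes, then all paralogs and other members, the stalk genes, genes of known roles, and from the other lists members past 2-fold and the 2 brightest. Rpl37, Rpl37a, Rps27, Rps9, Rps16, Rps4x, Tsc1, Tsc2, Rptor and Eif4ebp2 were named after their values were seen. The members and lists were chosen with earlier results of these data known. Steps were tested on simulated data. Scripts ran under Python 3.11.15 with numpy 2.4.6, pandas 2.3.3, statsmodels 0.14.6 (loess) and matplotlib 3.10.9.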

Additional observations from a re-analysis of the deposited data

Results flagged for a closer look

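Signal outside the gene probe sets was seen for the RNA of the ribosome itself. The 3 control probe sets for 18S ribosomal RNA, the RNA of the small subunit, had a median log2 ratio of 3.32. The 3′ probe set was at 355 in transgenic and 59.8 in non-transgenic cells (2.57), the 5′ one at 258 in transgenic and 25.8 in non-transgenic cells (3.32), and the middle one at 268 in transgenic and 4.36 in non-transgenic cells, where the non-transgenic value is under the floor and the ratio of 3.42 is a lower bound. All 3 non-transgenic values were under the filter of 98.8 and the 5′ one was close to the floor of 25.1, so the size of these ratios, and of their median, is uncertain. Their direction was opposite to that of most ribosomal protein messages. The bearing of ribosomal RNA carried into labelling on the message ratios was not tested.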

How the results depend on the processing

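A value was taken to have moved where it shifted by 0.1 or more on the log2 scale, a chosen limit, since 1 array per group gives no replicate spread. Quantile normalization moved the median ratio to 0.01 over core genes, 0.02 over large and -0.02 over small subunit genes, and omitting the alignment moved each of these 3 to -0.47. Under loess, other floors, other filters, other probe set rules and without probe sets marked as sharing sequence the 3 medians stayed between -0.30 and -0.22, and the median over the 42 core genes and 106 probe sets of several symbols together, a mix chosen after seeing the data, was -0.24. The gap between dim core genes and other dim genes, -0.50, was -0.32 with no filter and -0.37 when each gene was read by its probe set of middle ratio, and from -0.56 to -0.44 otherwise. No core gene was 2-fold apart except without probe sets marked as sharing sequence, where Rps9, then read by its dim probe set, made it 1, and 3 passed a 1.5-fold threshold (Rpl12, Rpl27a and Rps29), where 25.8% of all genes did. Of the 36 named genes, 28 moved under quantile normalization, 13 under loess, 11 with the mean of probe sets, 7 with the probe set of middle ratio, 5 without probe sets marked as sharing sequence and 3 with the floor at 100. All 36 moved in the values as deposited. Omitting the alignment shifts the ratio of any 2 values above the floor by -0.16, which is past the limit of 0.1. That count and the move of the 3 medians to -0.47 were therefore fixed beforehand. No paired analysis was possible because each group is 1 array. Probe sets near the filter, among them those of Rps4l, Rpl3l and Rpl39l, are limited by signal over background, and no detection calls were used here.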
